A study of Mus musculus with 20 samples.

Results

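Messenger RNA of 9 genes for integrin subunits and tissue residency was followed through 12 RNA-seq libraries of mouse TH17 cells, the CD4+ T cells that make interleukin-17. The genes were chosen by name. They are the alpha subunits Itga1, Itga4, Itgae and Itgal, the beta subunits Itgb1, Itgb2 and Itgb7, and the residency genes Cd69 and Rgs1. All 9 have a row among the 24862 gene rows of each count table. The libraries form 6 groups of 2, all of C57BL/6 mice. CNS TH17 cells infiltrated the central nervous system and Ileum TH17 cells came from the ileum. Both were sorted as GFP+ cells straight from tissue suspensions and SMART-Seq v4, a kit for low RNA input, amplified their RNA. The labels do not name the GFP allele or how cells were brought into the CNS. Ad-c-Rel and Ad-control are cultures of TH17(β) cells, which were naive CD4+ T cells driven with TGF-β1 and IL-6. The first carries c-Rel overexpression and the second is its control. miR-21-/- and Control are cultures of naive CD4+ T cells from knockout and control mice, driven to TH17(23) cells by adding IL-23, IL-1β and IL-6 and prepared with a stranded total RNA kit. Every culture was stimulated through CD3 and CD28 with antibodies that block IL-4 and IFN-γ. Which kit made the Ad-c-Rel and Ad-control libraries is unclear from the labels. Chromatin (ATAC-seq) samples, 8 in number, were left out.

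Integrins are pairs of an alpha and a beta subunit that hold a T cell to vessel walls, to other cells and to matrix. The alpha 4 subunit (Itga4) pairs with beta 1 (Itgb1) to bind VCAM-1 and fibronectin, a receptor used by T cells entering the inflamed CNS, or with beta 7 (Itgb7) to bind MAdCAM-1 on gut vessels. Beta 7 also pairs with alpha E (Itgae, CD103) to bind E-cadherin on epithelium, and TGF-β is a known inducer of CD103. Alpha L with beta 2 (Itgal, Itgb2) forms LFA-1, which binds ICAMs. Alpha 1 with beta 1 (Itga1, CD49a) binds collagen. CD69 keeps T cells in tissue by pulling the exit receptor S1PR1 off the cell surface, and RGS1 dampens signals from chemokine receptors.

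Gene counts per library ran between 1.54e+07 and 3.67e+07. Far fewer genes were detected in the second library of either tissue, although it held more counts than the first. The number dropped from 14224 to 11545 for CNS cells, while ileum cells went from 13927 to 10771. Cultured pairs lay closer, the widest gap being 16350 against 15842 in miR-21-/- cells. What this drop does to the tissue comparison was not tested. The 2 libraries of each group differed by more than counting noise, and the labels do not say whether they came from separate animals or cultures, so p-values reflect only how far these samples lie apart, and that spread may be technical. The targeted genes moved as labelled. Rel, which encodes c-Rel, was at 57.5 and 61.9 CPM (counts scaled to the library total of gene counts) in Ad-c-Rel cells, against 10.8 and 7.02 CPM in Ad-control cells. Mir21a had 0 and 0 counts in miR-21-/- cells, against 25 and 20 counts in Control cells. The sorted libraries held transcripts of other cells. Summed levels of 20 myeloid and microglia markers were 28280 to 29358 CPM in CNS libraries, against 2955 to 3180 CPM in ileum libraries, and 123 to 277 CPM in the cultures. All 20 of these markers had counts in both tissues, and 18 were called higher in CNS. Neutrophil markers summed to 378 to 424 CPM in CNS libraries, against 0.117 to 10.2 CPM in ileum libraries. B and plasma cell markers summed to 346 to 356 CPM in CNS libraries, against 4049 to 4167 CPM in ileum libraries. CD8, gamma-delta and NK markers summed to 54.0 to 76.2 CPM in CNS libraries, against 1118 to 1166 CPM in ileum libraries, a sum made up almost wholly of Gzma (granzyme A). Gzma was at 11.8 and 5.93 CPM in CNS libraries, against 1148 and 1108 CPM in ileum libraries. The median log2 fold change of that list was 1.58, and Cd8a (1.88) and Cd8b1 (1.58) had positive estimates that missed the threshold. The B cell genes Ms4a1 and Pax5 were at 0 in CNS, and Ncr1 of NK cells was at 0 in ileum. The labelled cell type was checked against its own genes. TH17 markers, among them Il17a and Il17f, summed to 605 to 641 CPM in CNS libraries, against 10651 to 11652 CPM in ileum libraries, and T cell identity genes to 5951 to 5978 CPM, against 7438 to 7784 CPM.

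**Figure D1:**
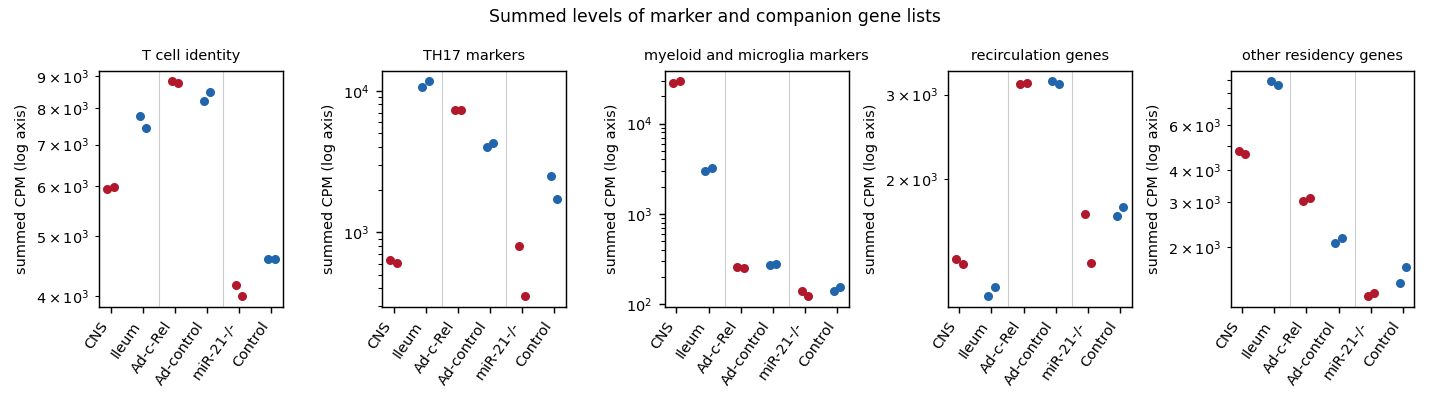
Summed CPM on a log axis (points, 1 per library) of 5 gene lists in the 6 groups. Myeloid markers of CNS libraries stand above those of every other group, while their TH17 markers stand below those of ileum libraries.

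Across the 6 groups the members fell into those that were high in sorted cells and those that were not. Counts depend on transcript length, so levels are compared between groups for 1 gene and not between genes. The groups also differ in cell source and kit, so this order is a description with no test. Rgs1 was the one member whose 6 groups were all separate from their neighbours in the order. Its mean was 830 CPM in CNS and 6253 CPM in ileum, 492 CPM in Ad-c-Rel and 456 CPM in Ad-control, and 165 CPM in miR-21-/- and 261 CPM in Control cells. Ileum stood highest, followed by CNS, Ad-c-Rel, Ad-control, Control and miR-21-/- cells, and each group's libraries lay above those of the next. Cd69 followed the same order down to Ad-control cells, with means of 808 CPM in CNS and 1142 CPM in ileum, and of 145 CPM in Ad-c-Rel and 72.6 CPM in Ad-control cells. Its 2 TH17(23) groups overlapped below them. Itgae was at 24.2 ± 5.30 CPM in CNS and 52.0 ± 1.15 CPM in ileum (SD, n = 2 each). The 4 cultured groups were between 3.62 and 5.20 CPM for Itgae and overlapped with their neighbours in the order. The TH17(β) cultures among them had received TGF-β1. Itga4 differed most between cultures. It was at 81.3 CPM in CNS and 88.9 CPM in ileum, which overlapped. Below these it was at 19.6 CPM in miR-21-/- and 10.3 CPM in Control cells, and lowest at 2.24 CPM in Ad-c-Rel and 3.23 CPM in Ad-control cells, with no overlap between these 4 groups.

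The beta subunits had another order. Itgb1 was highest in CNS cells (758 CPM) and lowest in ileum cells (71.1 CPM), with the 4 cultures between 174 and 227 CPM. Itgb2 was likewise highest in CNS (1305 CPM), and its mean in ileum (360 CPM) was the lowest with library totals. Ileum libraries overlapped with those of miR-21-/- cells for Itgb2 and lay below both Control libraries. With TMM scaling over the 12 libraries ileum stood 4th of 6 for Itgb2, at 407 CPM, above miR-21-/- (400.0 CPM) and Control cells (379.7 CPM), so its place among these 3 groups turns with the scaling. Itgb7 was highest in Ad-control (884 CPM) and CNS cells (870 CPM), which overlapped, and lowest in the 2 TH17(23) groups (269 to 287 CPM). Itgal varied least, with a highest group mean 2.19 times the lowest. Itga1 had 117 counts in all in the 2 CNS libraries and 0 to 17 counts in each other group. In profile over the 12 libraries, the closest members were Itgb2 and Itgb7 and the most distant were Itgb1 and Rgs1. Their root mean square differences were 0.39 and 2.29 on the log2 scale after each gene was centred on its own mean.

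**Figure D2:**
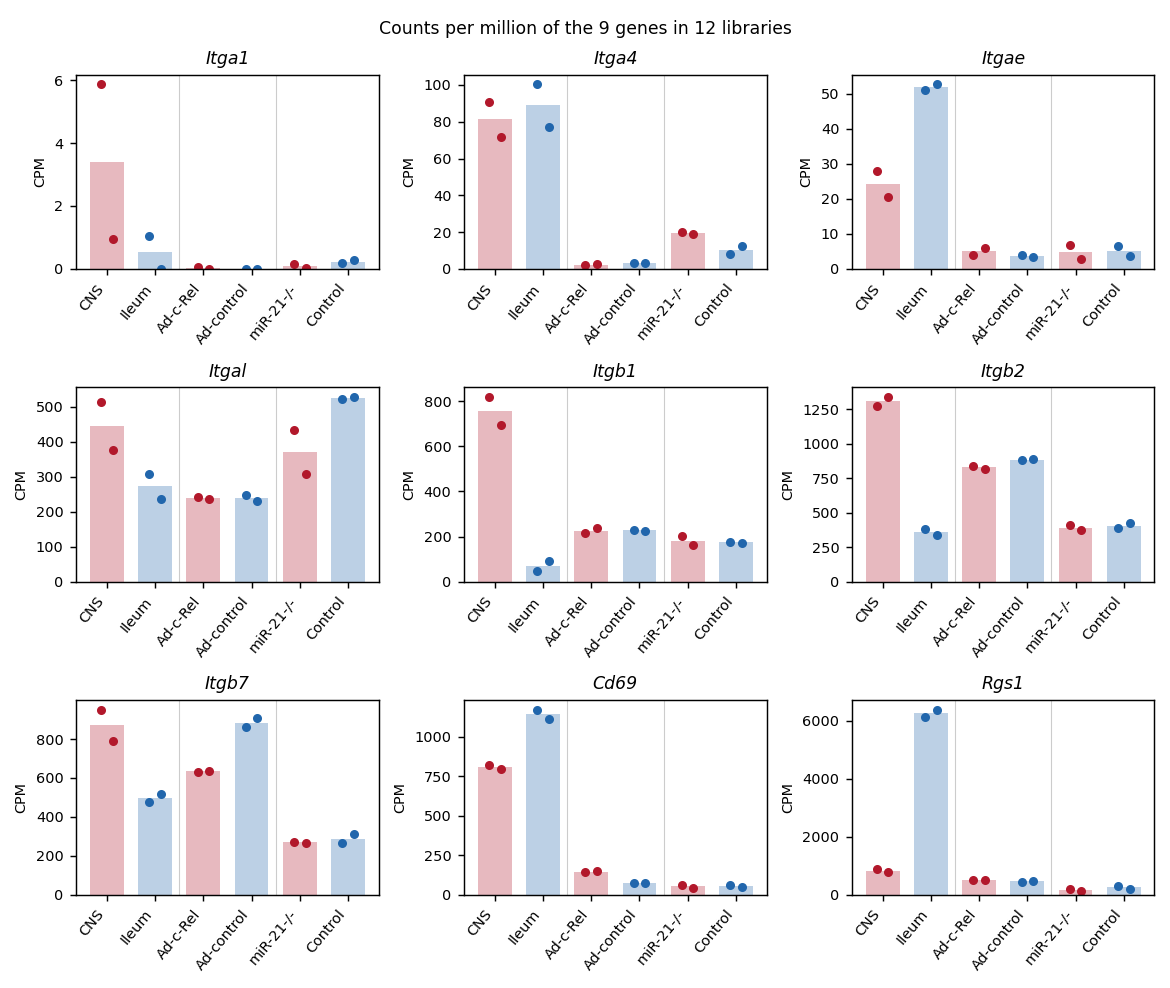
CPM of the 9 genes in 6 groups; bars are group means from 0 and points are the 2 libraries. Rgs1, Cd69, Itgae and Itga4 stand highest in ileum or CNS cells, whereas Itgb1 and Itgb2 are highest in CNS cells. Itgb1 is lowest in ileum cells, while the lowest group for Itgb2 depends on the scaling.

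CNS cells carried more beta 1 and beta 2 transcript, and less Rgs1 and Cd69, than ileum cells. All 9 members were tested in this comparison, and 2 rose (Itgb1 and Itgb2) and 2 fell (Rgs1 and Cd69) in CNS at an adjusted p under 0.05. Over all 12038 genes tested, 4% were called higher and 5.66% lower. The split over all genes, 482 higher and 681 lower, became 643 and 512 when libraries were scaled by their totals alone, and 1113 and 339 when they were scaled to T cell identity genes. That last scaling moved the median log2 fold change of all genes to 0.63, against 0.08 in the scaling used here. In such bulk samples, fewer cells of a type and less RNA per cell cannot be told apart. The share of all genes whose libraries did not overlap is not given for the tissues, so non-overlap of a member is description only. In the miR-21-/- comparison 23.7% of all genes stood wholly higher and 30.6% wholly lower.

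Itgb1 was at 820 and 696 CPM in CNS libraries, against 49.8 and 92.4 CPM in ileum libraries. Every CNS library lay far above both ileum libraries, which differed between themselves. The log2 fold change was 3.22 (SE 0.317, edgeR adjusted p = 0.00470). Itgb2, the beta chain of LFA-1, was at 1270 and 1340 CPM in CNS libraries, against 378 and 342 CPM in ileum libraries, a log2 fold change of 1.66 (SE 0.133, edgeR adjusted p = 0.00258). Its groups did not overlap. Itgb7 was at 952 and 788 CPM in CNS libraries, against 477 and 516 CPM in ileum libraries. Although these did not overlap either, the change of 0.61 (SE 0.138) missed the threshold (edgeR adjusted p = 0.0553), while DESeq2 called it (0.61, adjusted p = 0.000342). The same libraries had the higher myeloid markers given above, and beta 1 and beta 2 are also made by myeloid cells. The part of those cells in the beta subunit results was not tested.

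None of the 4 alpha subunits passed the test between the tissues. Itga4 was at 90.6 and 72.0 CPM in CNS libraries, against 100.6 and 77.2 CPM in ileum libraries, which overlapped (log2 fold change −0.33, SE 0.270, edgeR adjusted p = 0.542). Itgal, the alpha chain of LFA-1, was at 514 and 376 CPM in CNS libraries, against 308 and 237 CPM in ileum libraries. Its groups did not overlap, and the change of 0.50 (SE 0.225, edgeR adjusted p = 0.256) passed only with scaling to T cell identity genes (1.06, adjusted p = 0.0340). Itgae was at 27.9 and 20.4 CPM in CNS libraries, against 51.2 and 52.8 CPM in ileum libraries. Both CNS libraries were lower, and the change of −1.31 (SE 0.343) missed the threshold in edgeR (adjusted p = 0.0806) and passed it in DESeq2 (adjusted p = 0.0101). Itgae overlaps Haspin, whose own values were 15.2 and 22.8 CPM in CNS libraries, against 11.9 and 0.293 CPM in ileum libraries, so its counts are uncertain where the 2 genes overlap. Itga4 overlaps Cerkl and Itga1 overlaps Pelo, and the same holds for them. Itga1 had 99 and 18 counts in CNS libraries, against 17 and 0 counts in ileum libraries, an estimate too uncertain to place (2.46, SE 2.60, edgeR adjusted p = 0.651).

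Cd69 was at 824 and 793 CPM in CNS libraries, against 1172 and 1113 CPM in ileum libraries. Both CNS libraries lay below both ileum libraries, and the log2 fold change was −0.70 (SE 0.113, edgeR adjusted p = 0.0215). The call ended without Ileum replicate 1 (adjusted p = 0.0538) and with scaling to T cell identity genes (−0.15, adjusted p = 0.449). Rgs1 differed far more. It was at 876 and 784 CPM in CNS libraries, against 6123 and 6384 CPM in ileum libraries, and both ileum libraries stood far above both CNS libraries. The log2 fold change of −3.11 (SE 0.0987, edgeR adjusted p = 0.000240) ranged over −3.22 to −3.09 when 1 library was left out, and was −2.56 with scaling to T cell identity genes. T cell identity genes, with 5 of 13 lower and a median of −0.55, moved far less than Rgs1. TH17 markers, with 7 of 8 lower and a median of −4.77, moved more, and their part in the Rgs1 and Cd69 results was not tested.

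**Figure D3:**
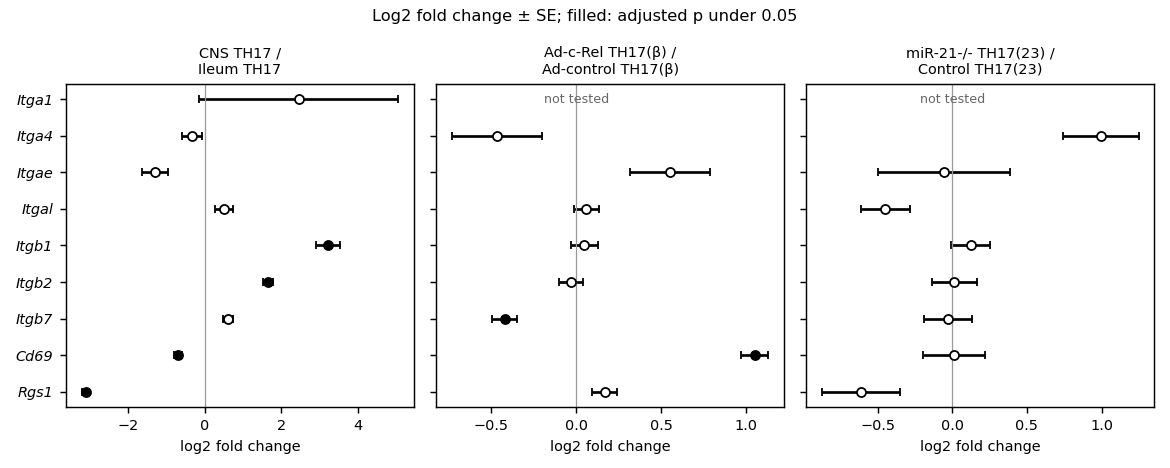
Log2 fold change of each gene (x axis; points with SE bars) in the 3 comparisons, with filled points for an adjusted p under 0.05. Between tissues Itgb1 and Itgb2 lie right of 0 and Cd69 and Rgs1 left of it; with c-Rel, Cd69 lies right and Itgb7 left; no point is filled for miR-21-/- cells.

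The balance between subunits that share a partner was read as a ratio of counts within each library, which does not depend on scaling. With 2 libraries against 2, an exact permutation test cannot reach 0.05, so overlap alone is given. The share of all gene pairs without overlap is not given for any comparison, so non-overlap of a ratio is description only. Itgb7 over Itgb1, the beta partners of alpha 4, was 1.16 and 1.13 in CNS libraries, against 9.58 and 5.58 in ileum libraries. The groups did not overlap, with a difference of −2.67 on the log2 scale. Itgae over Itgb7 was 0.0294 and 0.0259 in CNS libraries, against 0.107 and 0.102 in ileum libraries. Itgal over Itgb2, the LFA-1 pair, was 0.404 and 0.280 in CNS libraries, against 0.813 and 0.693 in ileum libraries. Itga4 over Itgb7 was 0.0952 and 0.0913 in CNS libraries, against 0.2108 and 0.1496 in ileum libraries. Itga4 over Itgb1, a pair added after the data were seen, was 0.111 and 0.103 in CNS libraries, against 2.02 and 0.836 in ileum libraries. Its difference was −3.60 on the log2 scale. In each of these pairs the CNS ratio was the lower one without overlap. The alpha chains were thus lower relative to these beta chains in CNS libraries, in which the sum of myeloid markers was also higher.

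**Figure D4:**
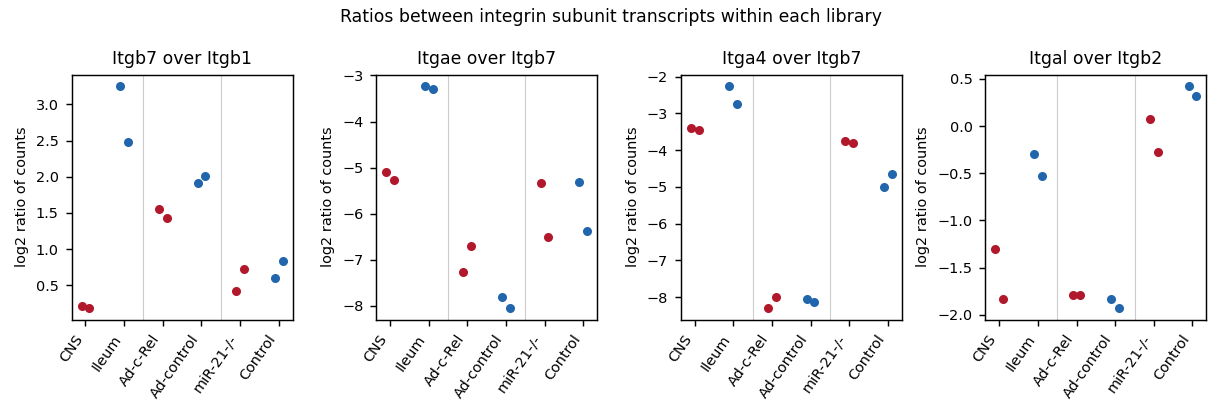
Log2 ratio of counts of 2 genes within each library (points, 2 per group) for 4 pairs of integrin subunits. Itgb7 over Itgb1 lies near 0 in CNS cells and above 2 in ileum cells; Itga4 over Itgb7 is higher in miR-21-/- than in Control cells.

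Other genes of integrin function moved in both directions between the tissues. Of 12 further integrin subunits tested, 3 rose in CNS and 0 fell (median log2 fold change 0.18). Itgb5, a partner of alpha V, was at 619 and 665 CPM in CNS libraries, against 61.0 and 55.6 CPM in ileum libraries (3.26, SE 0.165, edgeR adjusted p = 0.000817). Itgam, the alpha M chain of the myeloid integrin Mac-1, was at 503 and 365 CPM in CNS libraries, against 21.7 and 9.51 CPM in ileum libraries (4.59, SE 0.475). Itga6, a laminin-binding alpha chain, changed by 2.15 (SE 0.331), a call that ended when CNS replicate 1 (adjusted p = 0.0718) was left out, and likewise for CNS replicate 2 (adjusted p = 0.0625). Of 20 genes for integrin activation, 3 rose and 3 fell (median −0.11). The falls were Cytip, a binder of cytohesins, at −2.81 (SE 0.159), the kinase Stk4 at −2.31 (SE 0.135) and Cyth1, a cytohesin, at −1.34 (SE 0.203). The Cyth1 call ended with scaling to T cell identity genes (−0.79, edgeR adjusted p = 0.0778). Rasa3, a GTPase-activating protein for Ras and Rap, rose by 1.69 (SE 0.197), as did Fermt3 (kindlin-3, which activates integrin beta tails) by 1.21 and Sipa1 by 0.91, 2 genes named after their values were seen. Without Ileum replicate 2 the rise of Rasa3 alone remained called, and the Sipa1 call ended without any 1 of the 4 libraries. Of 7 ligand genes, 2 rose. Fn1 (fibronectin) was at 454 and 349 CPM in CNS libraries, against 1.41 and 0.469 CPM in ileum libraries, and Spp1 (osteopontin) at 571 and 521 CPM, against 5.17 and 0.293 CPM. Myeloid cells are a known source of both ligands. The part of those cells in the values of the ligands, of Itgb5 and of the other genes named here was not tested.

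Of 12 companion residency genes tested, 6 fell in CNS cells and 0 rose, with a median of −0.92. In the same libraries 5 of 13 T cell identity genes also fell (median −0.55). Cxcr6, a chemokine receptor of tissue T cells, was at 1105 and 905 CPM in CNS libraries, against 2685 and 2773 CPM in ileum libraries (−1.64, SE 0.125, edgeR adjusted p = 0.00221). Nr4a1, a receptor-induced nuclear factor, was at 839 and 823 CPM in CNS libraries, against 2148 and 2030 CPM in ileum libraries (−1.53, SE 0.108). Both tissues were clearly apart in these genes. Ahr, a ligand-sensing factor, fell by 2.62 (SE 0.232) and Hic1, a repressor linked to gut T cells, fell by 2.91 (SE 0.422). Prdm1 and Bhlhe40 also fell, at −2.05 and −0.60, named after their values were seen. The Bhlhe40 call ended without Ileum replicate 1 (adjusted p = 0.0622). Genes of recirculation did not form the mirror image. Of 9 tested, 1 rose and 1 fell. Lef1, a factor of naive and memory T cells, was at 106 and 112 CPM in CNS libraries, against 22.3 and 12.7 CPM in ileum libraries (2.44, SE 0.383, edgeR adjusted p = 0.0195). Ccr7, the receptor that guides T cells to lymph nodes, was at 77.9 and 88.4 CPM in CNS libraries, against 265 and 251 CPM in ileum libraries (−1.83, SE 0.184). Without Ileum replicate 1 or Ileum replicate 2, 2 of these genes were called higher in place of 1, and 5 were with scaling to T cell identity genes.

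The RGS family did not move as a whole with Rgs1. Of 7 other RGS genes tested, 2 rose and 1 fell in CNS, with a median of 1.67 against −3.11 for Rgs1. Rgs2, a regulator of Gq signals, was at 775 and 773 CPM in CNS libraries, against 1280.3 and 1319.7 CPM in ileum libraries (−0.95, SE 0.106, edgeR adjusted p = 0.00725). This call ended with scaling to T cell identity genes (−0.40, adjusted p = 0.0861). Rgs19 was at 137 and 133 CPM in CNS libraries, against 38.8 and 35.3 CPM in ileum libraries (1.67, SE 0.234). Rgs3 changed by 2.03 (SE 0.417), and its call ended when CNS replicate 1 (adjusted p = 0.186) was left out, and likewise for Ileum replicate 1 (adjusted p = 0.0606). Of 12 genes of the TGF-β pathway, 1 rose and 2 fell (median −0.40). The list holds ligand, receptor and SMAD genes, so its counts do not measure the response to TGF-β. The receptor gene Tgfbr1 was at 174 and 141 CPM in CNS libraries, against 37.1 and 34.1 CPM in ileum libraries (1.94, SE 0.240). The part of myeloid cells in the Tgfbr1 values was not tested. Skil and Tgif1, feedback repressors of SMADs, changed by −0.83 (SE 0.148) and −1.39 (SE 0.249). Neither was called without Ileum replicate 2 (adjusted p = 0.0770 and 0.0570) or with scaling to T cell identity genes. The Skil call also ended when CNS replicate 2 (adjusted p = 0.0647) was left out, and likewise for Ileum replicate 1 (adjusted p = 0.0522).

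Added c-Rel raised Cd69 transcript and lowered that of Itgb7 in TH17(β) cells, and no other member passed the test. Of the 8 members tested, 1 rose and 1 fell. Over all 11711 genes tested, 8.16% were called higher and 6.12% lower. That split, 956 higher and 717 lower, became 669 and 1027 with library totals and 516 and 1864 with scaling to T cell identity genes, which moved the median of all genes to −0.14. Cd69 was at 141 and 148 CPM in Ad-c-Rel cells, against 70.6 and 74.6 CPM in Ad-control cells. Both groups were tight and far apart, with a log2 fold change of 1.05 (SE 0.0814, edgeR adjusted p = 5.45e-07). Itgb7 was at 630 and 637 CPM in Ad-c-Rel cells, against 861 and 908 CPM in Ad-control cells, and again the libraries did not overlap. Its log2 fold change was −0.42 (SE 0.0744, edgeR adjusted p = 0.00123), and −0.56 with scaling to T cell identity genes. Both calls held without any 1 library. Both ended in a fit over all 12 libraries, in which the spread is shared with the other groups (adjusted p = 0.113 for Cd69 and 0.686 for Itgb7). Over all genes that fit called 18 higher and 1 lower. In it Itgav, Itga3, Cxcr6, Bhlhe40, Klf2, Ccr7, Rgs16, Rgs2 and Skil, all given below, also lost their calls. Of the 20 myeloid and microglia markers, 7 were tested in these cultures, and 3 were called higher and 1 lower. Tmem119 was at 14.5 and 12.7 CPM in Ad-c-Rel cells, against 5.32 and 4.92 CPM in Ad-control cells (1.47, SE 0.160). Cd68 (0.59) and Fcer1g (3.90) were the other higher ones and Ctss (−0.28) the lower one. The list summed to 248.6 to 254.6 CPM in Ad-c-Rel cells, against 269 to 277 CPM in Ad-control cells, and its part in these results was not tested. C1qa, C1qb, C1qc and Trem2 had 0 counts in all 4 libraries, and Lyz2 was at 0 and 0 CPM in Ad-c-Rel cells, against 0.0648 and 0 CPM in Ad-control cells.

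The promoters of the beta partners of alpha 4 are shown because their transcripts parted here, Itgb7 being called lower while Itgb1 missed the threshold. Each covers 250 bases before to 50 bases after a start site in RefSeq, build GRCm38.p6, 5′ to 3′ on the gene's own strand. The Itgb1 promoter is chr8:128685404-128685703 on the plus strand and the Itgb7 promoter is chr15:102231886-102232185 on the minus strand. The Itgb1 window spans the 5′ end of its gene, at position 128685654. The Itgb7 window belongs to a start site inside its gene, which runs over chr15:102215994-102233405. The outermost 5′ end of Itgb7 was not searched. Capitals mark a match to GGNNNTTCC (N is any base), a motif of the κB type that NF-κB proteins such as c-Rel can bind, searched on both strands.
Itgb1: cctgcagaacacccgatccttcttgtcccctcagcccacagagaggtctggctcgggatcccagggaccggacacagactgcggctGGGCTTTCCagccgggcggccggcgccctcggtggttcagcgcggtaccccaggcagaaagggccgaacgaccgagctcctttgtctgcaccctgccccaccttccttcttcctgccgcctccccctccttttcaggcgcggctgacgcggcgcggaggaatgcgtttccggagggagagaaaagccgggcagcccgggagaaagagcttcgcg
Itgb7: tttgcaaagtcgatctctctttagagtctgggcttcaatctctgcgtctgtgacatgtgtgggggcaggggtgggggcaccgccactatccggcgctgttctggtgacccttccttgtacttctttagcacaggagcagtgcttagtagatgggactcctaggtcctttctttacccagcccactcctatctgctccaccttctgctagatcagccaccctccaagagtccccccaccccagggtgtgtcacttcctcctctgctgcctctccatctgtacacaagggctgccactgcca
Itgb1 held 1 match, starting at position −164 from the start site, and the window at the internal Itgb7 start held none. The motif was found in 18.5% of 32851 promoters of this length, so a match is common. RefSeq promoters were matched for 4 of the 9 members, and those of Itga1 and Itga4 held no match.

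The remaining integrin members stayed close to their controls or were too few in reads. Itgb1 was at 214 and 237 CPM in Ad-c-Rel cells, against 229 and 225 CPM in Ad-control cells, which overlapped (log2 fold change 0.05, SE 0.0772, edgeR adjusted p = 0.737). Itgb2 was at 837 and 819 CPM in Ad-c-Rel cells, against 878 and 885 CPM in Ad-control cells (−0.03, SE 0.0720, edgeR adjusted p = 0.817). Itgal was at 242 and 236 CPM in Ad-c-Rel cells, against 246 and 232 CPM in Ad-control cells (0.06, SE 0.0724, edgeR adjusted p = 0.639). Of these 3 genes, Itgb2 alone did not overlap between the groups, both Ad-c-Rel libraries being lower. The share of all genes without overlap is not given for added c-Rel, so non-overlap is description only here too. Itgae was at 4.10 and 6.09 CPM in Ad-c-Rel cells, against 3.83 and 3.41 CPM in Ad-control cells. Both Ad-c-Rel libraries were higher (0.55, SE 0.236, edgeR adjusted p = 0.135), and the change was called without Ad-c-Rel replicate 1 (0.82, adjusted p = 0.0342). Itga4 was at 1.99 and 2.50 CPM in Ad-c-Rel cells, against 3.24 and 3.21 CPM in Ad-control cells (−0.47, SE 0.264, edgeR adjusted p = 0.263). These values rest on 35 and 41 counts, against 50 and 64 counts. Itga1 had 1 and 0 counts in Ad-c-Rel cells, against 0 and 0 in Ad-control cells. The floor of the Ad-control group was 0.0849 CPM (3 counts over its 2 libraries, counting error only). The exact 95% Poisson interval for its count of 0 reached 0.104 CPM. Rgs1 was at 490 and 494 CPM in Ad-c-Rel cells, against 450 and 463 CPM in Ad-control cells (0.17, SE 0.0727, edgeR adjusted p = 0.144), without overlap. Within libraries, Itgb7 over Itgb1 was 2.94 and 2.69 in Ad-c-Rel cells, against 3.75 and 4.04 in Ad-control cells, a difference of −0.47 on the log2 scale without overlap. Itgae over Itgb7 was 0.00650 and 0.00955 in Ad-c-Rel cells, against 0.00444 and 0.00376 in Ad-control cells, a larger difference of 0.95 without overlap. Itga4 over Itgb1 differed by −0.52 and Itgal over Itgb2 by 0.09, both without overlap, while Itga4 over Itgb7 overlapped.

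Some other genes of residency and recirculation were called in Ad-c-Rel cells. Of 11 companion residency genes tested, 4 rose and 1 fell, and the median of 0.06 lay near that of all genes (−0.01). Nr4a1 was at 542 and 534 CPM in Ad-c-Rel cells, against 159 and 170 CPM in Ad-control cells (1.77, SE 0.0779, edgeR adjusted p = 1.40e-09). Cxcr6 was at 285 and 277 CPM in Ad-c-Rel cells, against 147 and 177 CPM in Ad-control cells (0.85, SE 0.0906), and Bhlhe40 changed by 0.65 (SE 0.0788). These calls held without any 1 library, while those of Cxcr6 and Bhlhe40 ended in the fit over all 12 libraries. Litaf, at 0.40 (SE 0.109), was not called when Ad-c-Rel replicate 2 (adjusted p = 0.239) was left out, and likewise for Ad-control replicate 2 (adjusted p = 0.154). P2rx7, named after its value was seen, changed by −0.47 and lost its call without Ad-c-Rel replicate 2, Ad-control replicate 1 or Ad-control replicate 2. Of 9 recirculation genes, 5 fell and 1 rose (median −0.26). Klf2, a factor that drives S1pr1, was at 17.0 and 16.6 CPM in Ad-c-Rel cells, against 45.9 and 41.7 CPM in Ad-control cells (−1.33, SE 0.105, edgeR adjusted p = 6.22e-07). S1pr1, the exit receptor that CD69 opposes, was at 257 and 258 CPM in Ad-c-Rel cells, against 334 and 329 CPM in Ad-control cells (−0.31, SE 0.0716, edgeR adjusted p = 0.00939). Its call ended when Ad-c-Rel replicate 1 (adjusted p = 0.0769) was left out, and likewise for Ad-c-Rel replicate 2 (adjusted p = 0.0676). Tcf7 and S1pr4, named after their values were seen, were also among the lower genes. Fewer than 5 were called lower when 1 library was left out, with 2 without Ad-c-Rel replicate 2, 3 without Ad-c-Rel replicate 1 or Ad-control replicate 1, and 4 without Ad-control replicate 2. Ccr7 went the other way and was at 1337 and 1309 CPM in Ad-c-Rel cells, against 946 and 929 CPM in Ad-control cells (0.55, SE 0.0719).

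Of 11 other integrin subunits tested with added c-Rel, 5 rose and 1 fell (median 0.00). Itgav, the alpha V chain, was at 90.5 and 107 CPM in Ad-c-Rel cells, against 60.2 and 53.6 CPM in Ad-control cells (0.86, SE 0.0968, edgeR adjusted p = 1.74e-05). Itga3, a laminin-binding chain, was at 223 and 211 CPM in Ad-c-Rel cells, against 159 and 137 CPM in Ad-control cells (0.61, SE 0.0810). Both calls held without any 1 library and ended in the fit over all 12 libraries. Itgb3 (0.42) and Itgb8 (1.75, at 6 and 10 counts in Ad-control cells) are partners of alpha V and each lost its call without 3 of the 4 libraries, as did Itga5 (0.34) and the lower Itga6 (−0.32), named after their values were seen. The count was 2 to 3 higher and 0 to 1 lower with 1 library left out, 2 and 0 in DESeq2. Of 20 activation genes, 2 rose and 3 fell, and with 1 library left out 0 to 1 and 1 to 2 did. Rasa3 was at 48.4 and 49.1 CPM in Ad-c-Rel cells, against 67.3 and 66.8 CPM in Ad-control cells (−0.40, SE 0.0864, edgeR adjusted p = 0.00554). Its call alone held without any 1 library, and it ended in the fit over all 12 libraries. Of 5 ligand genes, 2 rose. Icam1, a ligand of LFA-1, was at 111 and 115 CPM in Ad-c-Rel cells, against 92.9 and 92.5 CPM in Ad-control cells (0.34, SE 0.0781, edgeR adjusted p = 0.00848), and Spp1 changed by 0.86 (SE 0.216). Neither was called without Ad-c-Rel replicate 2 (adjusted p = 0.0994 and 0.237). Spp1 also lost its call when Ad-control replicate 1 (adjusted p = 0.109) was left out, and likewise for Ad-control replicate 2 (adjusted p = 0.0681).

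Among 7 other RGS genes, 2 rose and 1 fell in Ad-c-Rel cells, while Rgs1 missed the threshold. Rgs16, an activation-induced member, was at 22.5 and 21.0 CPM in Ad-c-Rel cells, against 7.07 and 6.82 CPM in Ad-control cells (1.70, SE 0.133, edgeR adjusted p = 5.72e-07). Rgs2 was at 109 and 111 CPM in Ad-c-Rel cells, against 78.9 and 70.6 CPM in Ad-control cells (0.62, SE 0.0821). Rgs14, the lower one at −0.44 (SE 0.0997), lost its call without Ad-c-Rel replicate 2 (adjusted p = 0.102). Of 12 genes of the TGF-β pathway, 2 rose. Skil was at 173 and 220 CPM in Ad-c-Rel cells, against 130 and 129 CPM in Ad-control cells (0.66, SE 0.0988, edgeR adjusted p = 0.000293). Tgif1 changed by 0.41 (SE 0.0938) and was not called when Ad-c-Rel replicate 2 (adjusted p = 0.165) was left out, and likewise for Ad-control replicate 2 (adjusted p = 0.0599). TH17 markers moved in the same libraries, with 7 of 8 higher, a median of 0.95 and sums of 7305 to 7342 CPM in Ad-c-Rel cells, against 3976 to 4241 CPM in Ad-control cells. Their part in the residency results was not tested.

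miR-21 is a small RNA that lowers messages carrying sites matched to its seed, and its main strand is shown so that the agent lost in the last comparison can be read. The strand lies on chr11:86584120-86584141 of GRCm38.p6, minus strand, per RefSeq, and capitals mark the seed, bases 2 to 8.
mmu-miR-21a-5p: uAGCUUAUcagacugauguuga

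No member was called in miR-21-/- cells against Control cells. Of 8 members tested, 0 rose and 0 fell by edgeR's quasi-likelihood test, as did 0% of all 13428 genes in either direction. At an unadjusted p under 0.05, 1289 genes were higher and 1532 lower, and DESeq2 called 334 higher and 469 lower. Among the members DESeq2 called 1, Itga4. Its transcript was at 20.2 and 19.0 CPM in miR-21-/- cells, against 8.21 and 12.3 CPM in Control cells. Both knockout libraries stood above both Control libraries, with a log2 fold change of 1.00 (SE 0.252, edgeR adjusted p = 0.144) and of 1.02 in DESeq2 (adjusted p = 0.0130). Itga4 over Itgb7 was 0.0743 and 0.0712 in miR-21-/- cells, against 0.0309 and 0.0397 in Control cells, a difference of 1.05 on the log2 scale without overlap. Over Itgb1, a pair added after the data were seen, the difference was 0.91, also without overlap.

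The other members gave smaller differences in miR-21-/- cells. Itgal was at 432 and 308 CPM in miR-21-/- cells, against 521 and 528 CPM in Control cells (−0.45, SE 0.165, edgeR adjusted p = 0.210). Rgs1 was at 208 and 122 CPM in miR-21-/- cells, against 313 and 208 CPM in Control cells (−0.61, SE 0.263, edgeR adjusted p = 0.258). Neither gene's groups overlapped, though for Rgs1 the nearest libraries were almost equal. In CPM, 1 member stood wholly higher and 2 wholly lower in miR-21-/- libraries, while 23.7% and 30.6% of all genes did so, a share near or above that of the members. Cd69 was at 63.4 and 40.2 CPM in miR-21-/- cells, against 61.1 and 45.7 CPM in Control cells (0.01, SE 0.207, edgeR adjusted p = 0.984). Itgae was at 6.78 and 2.93 CPM in miR-21-/- cells, against 6.68 and 3.73 CPM in Control cells (−0.06, SE 0.441, edgeR adjusted p = 0.953). For both genes replicate 1 was the higher library in each group, and the groups overlapped.

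The beta subunits differed by less than their spread. Itgb1 was at 202 and 162 CPM in miR-21-/- cells, against 175 and 173 CPM in Control cells (0.12, SE 0.129, edgeR adjusted p = 0.600). Itgb2 was at 410 and 374 CPM in miR-21-/- cells, against 387 and 424 CPM in Control cells (0.01, SE 0.148, edgeR adjusted p = 0.965). Itgb7 was at 271 and 267 CPM in miR-21-/- cells, against 266 and 309 CPM in Control cells (−0.03, SE 0.161, edgeR adjusted p = 0.935). All 3 overlapped between the groups. Itga1 had 5 and 1 counts in miR-21-/- cells, against 7 and 10 counts in Control cells, and was not tested. Itgal over Itgb2 was 1.05 and 0.824 in miR-21-/- cells, against 1.35 and 1.24 in Control cells, a difference of −0.47 without overlap. Itgae over Itgb7 overlapped between the groups. Within libraries, Itgb7 over Itgb1 also overlapped, at 1.34 and 1.65 in miR-21-/- cells, against 1.52 and 1.78 in Control cells.

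No gene of the companion lists was called by edgeR either, and the one of smallest p in each is given. Itgb5 was at 35.1 and 39.2 CPM in miR-21-/- cells, against 25.4 and 23.8 CPM in Control cells (0.67, SE 0.164, edgeR adjusted p = 0.140). Cd101, a surface protein of resident T cells, was at 21.1 and 19.4 CPM in miR-21-/- cells, against 44.4 and 47.0 CPM in Control cells (−1.10, SE 0.134, edgeR adjusted p = 0.107). Tcf7, a factor of naive and memory T cells, was at 352 and 326 CPM in miR-21-/- cells, against 164 and 176 CPM in Control cells (1.06, SE 0.140, edgeR adjusted p = 0.107). Each stood wholly apart between the groups, which a pick by smallest p favours. Of all genes tested, 23.7% stood wholly higher and 30.6% wholly lower in miR-21-/- libraries. Rgs12 changed by 1.04 (SE 0.166, edgeR adjusted p = 0.117), Rasa3 by 0.62 (SE 0.175), Smad2 by 0.48 (SE 0.131) and Fn1 by −1.20 (SE 0.363). DESeq2 called Itgb5, Cd101, Tcf7 and Rgs12 (adjusted p = 0.0394, 5.04e-05, 2.59e-06 and 0.000326). Without miR-21-/- replicate 1, edgeR also called these 4 genes (adjusted p = 0.0330, 0.0239, 0.0174 and 0.0239), and 666 genes higher and 661 lower over all. Cd101 was also called without Control replicate 1 (adjusted p = 0.0358) and with no filter on low counts (adjusted p = 0.0466). TH17 markers summed to 354 to 805 CPM in miR-21-/- cells, against 1704 to 2482 CPM in Control cells, and replicate 2 was the lower library of each group. Their part in the Itga4 values was not tested.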

How the data were processed

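The authors deposited raw counts per gene symbol for 12 RNA-seq libraries. Listed in the submitters' processing notes, without role or order, are the build mm10, HTSeq 0.11.0, TopHat2 2.1.0, Trim Galore 0.4.4, CASAVA 1.4, HOMER, SAMtools, Bowtie2 and DESeq2. Neither annotation nor strand setting is given there. Summary lines that name no gene, 14.7% to 26.1% of each table, stayed out of library sizes and tests.

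A separate fit of 4 libraries per comparison used edgeR 4.0.16 under R 4.3.3 (TMM scaling after filterByExpr, two-sided quasi-likelihood F test, Benjamini-Hochberg over all genes tested, threshold 0.05), after the script was tested on simulated data. SE was taken as the size of the log2 fold change divided by the root of F. CPM uses library totals of gene counts, given as mean ± SD with n = 2. Floors are 3 counts over a group's 2 libraries, without allowance for PCR copies, and limit counting error only.

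The members and lists were chosen with earlier results of these data known. Of each list, up to 4 called genes of smallest p are named, or the 1 of smallest p where none was called. Some items of the lists are not reported here. A list is described by its counts and its median, with no set test. Likeness of profile is the root mean square difference in log2(CPM + 1) over 12 libraries, and for each member the 2 closest genes averaging 5 CPM or more are named. Same-numbered replicates were not treated as pairs. Alternatives were DESeq2 1.42.0, other scalings, no filter on low counts, 1 fit over all libraries, a replicate block and leaving out each library. Their use on the gene lists, and the ratio of Itga4 to Itgb1, were added after seeing the data.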

Additional observations from a re-analysis of the deposited data

How the results depend on the processing

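Of the refits of single members, 241 kept direction and side of the threshold, 14 gained a call, 4 lost one and 16 changed sign. No called member changed sign in these refits, and the calls of Itgb1, Itgb2 and Rgs1 between tissues held in every one. Between tissues DESeq2 also called Itgb7 higher and Itgae lower in CNS. With no filter on low counts edgeR called both as well (adjusted p = 0.00611 and 0.0319). It also called Itgb7 with library totals (adjusted p = 0.0280) and in the fit over all 12 libraries (adjusted p = 0.0111). The number of members called higher or lower in CNS was 4 and 1 with scaling to T cell identity genes, and 1 was lower without Ileum replicate 1 (range 2 to 2 higher and 1 to 2 lower with 1 library left out). With added c-Rel it was 0 and 0 in the fit over all 12 libraries, and 2 higher without Ad-c-Rel replicate 1 (range 1 to 2). In miR-21-/- cells DESeq2 called 1 higher.

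Over all genes, CNS calls higher and lower were 1210 and 1330 in DESeq2, 1113 and 339 with T cell scaling, 1113 and 1300 with no filter and 1988 and 2012 in the fit over all 12 libraries, with ranges of 319 to 1285 and 531 to 724 with 1 library left out. For c-Rel they were 636 and 431 in DESeq2, 516 and 1864 with T cell scaling and 18 and 1 in the fit over all libraries, with ranges of 537 to 784 and 389 to 597. For miR-21 they were 334 and 469 in DESeq2, 2 and 1 with T cell scaling, 9 and 31 with no filter and 0 and 1 in the fit over all libraries, with ranges of 1 to 666 and 1 to 661. The causes were not tested.

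The 16 sign changes were of members not called. In CNS, Itga4 was at 0.23 with T cell scaling. With c-Rel, Itgal was at −0.076 with T cell scaling, and Itgb1 at −0.087 with it, −0.011 with library totals and −0.039 to 0.12 with 1 library left out. In miR-21-/- cells, T cell scaling gave Itgae 0.057 and Itgb7 0.072, and library totals gave Itgb2 −0.050 and Cd69 −0.044. With 1 library left out, Itgae ranged over −0.65 to 0.39, Itgb2 over −0.079 to 0.13, Itgb7 over −0.16 to 0.14 and Cd69 over −0.24 to 0.25.

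Same-numbered samples deviated together with correlations of 0.0780, 0.106 and 0.659 in the 3 comparisons, over 2 pairs each, which does not show that numbers pair the samples. With the number as a replicate block, 2 members rose with c-Rel (Rgs1 added, 0.17, adjusted p = 0.0487), and in miR-21-/- cells 1 rose (Itga4, 1.02, adjusted p = 0.000156) and 2 fell (Itgal, −0.46, adjusted p = 0.00938; Rgs1, −0.61, adjusted p = 0.000321). The block called 1488 genes higher and 1314 lower with c-Rel and 2287 and 2520 in miR-21-/- cells. Low counts limit Itga1, which no setting could place. Its replicates also differed within each tissue, with 99 and 18 counts in CNS libraries and 17 and 0 counts in ileum libraries.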

Other observations

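For each member, the 2 genes of most similar profile over the 12 libraries were taken among 9859 genes, after centring each gene on its own mean of log2(CPM + 1). The libraries share tissue, kit and depth within groups, so these are descriptions. Itgae lay closest to Pmepa1, a gene induced by TGF-β, with a root mean square difference of 0.27, against a spread of 1.36 of Itgae about its own mean, and next to F2r (0.31). Cd69 lay closest to Nfkbid, an atypical IκB gene (0.23, against a spread of 1.83), and next to Slc52a3 (0.30). Rgs1 lay closest to Nmrk1 (0.33) and Cirbp (0.39), against a spread of 1.70. Itgb2 lay closest to the immunoproteasome gene Psmb8 (0.07, against a spread of 0.71), followed by Uckl1 (0.17). Itgb7 lay closest to Rab1b (0.19) and Selplg, the selectin ligand PSGL-1 (0.19), against a spread of 0.69. Itgb1 lay closest to Galnt10 (0.32) and Asb13 (0.37), against a spread of 1.03, and Itgal to Gnptab (0.19) and Fh1 (0.19), against a spread of 0.46. Itga4 lay closest to Mndal (0.57) and Ipcef1 (0.57), against a spread of 1.88. Itga1 had a mean under 5 CPM, and its nearest genes, Ccdc22 (0.36) and Pip4k2a (0.36), rest on few counts.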
